A study of Rattus norvegicus with 6 samples.

Results

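Between the genes Wrn and Nrg1 on rat chromosome 16, the deposited expression table of dorsal root ganglia (DRG) lists 72 rows that carry no gene name. These loci were taken by position (start at or after 62653691, end at or before 63716384, in the coordinates of the table) and by a mean of at least 0.5 FPKM, that is fragments counted per length of locus and size of library, over the 6 libraries. They were 72 of 43350 rows, and no unnamed row of the interval was left out by the limit on the level. The 2 loci nearest to that limit were MSTRG.12154, at a mean of 0.691 FPKM, and MSTRG.12084, at 0.641 FPKM. The members were thus chosen by their mean FPKM, a value over both groups, and the interval was singled out with results of these libraries already known, so the counts given for it are a description of it.

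The libraries came from lumbar DRG of male Sprague-Dawley rats, collected on day 11 after surgery. In the CCI group (chronic constriction injury, loose ligatures around the left sciatic nerve, a model of neuropathic pain) there were 3 samples, and in the sham group, whose nerve was exposed but not tied and whose treatment label reads none, there were also 3. The ganglia were those of the operated side, with 1 rat per library by the study's methods, while the label text on library making speaks of pooled samples. No label gives the age of the rats, though the study's methods state a range in weeks for when they were acquired. Ribosomal RNA was depleted from total RNA, so RNA without a poly(A) tail could enter the libraries too. DRG hold the cell bodies of sensory neurons with satellite glia, Schwann cells and immune cells, and in such bulk tissue fewer cells of a type and less RNA per cell cannot be told apart.

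Nrg1 encodes neuregulin 1, a growth factor that binds ErbB receptors and is known in peripheral nerve for its part in Schwann cell survival, myelination and repair. The mammalian gene is transcribed from several promoters, some of them far from the others, and gives membrane-bound and secreted forms. Wrn, at the other end of the interval, encodes a DNA helicase of the RecQ family that acts in genome maintenance. A locus without a name in such a table is a stretch of the genome where an assembler joined overlapping reads that matched no annotated gene. An assembler reads the strand from splice sites, and a stretch without a spliced read usually gets none.

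The 6 libraries held 75423546 to 87615743 counts, of which 18466 to 41915 fell on the 72 loci. The neuron markers that define the tissue summed to 15425 to 19322 CPM (counts scaled by library size) per library. One sham library stood apart in another tissue's genes: 7 measured skeletal muscle markers summed to 383 CPM in sham 1 against 8.59 to 48.1 CPM in the other libraries. Of 8 genes known to respond to nerve injury (Atf3, Gal, Npy, Vip, Sprr1a, Reg3b, Jun and Gap43), 8 were called higher in CCI. Over all rows tested 2.57% were called higher. Each of the 8 was highest in CCI 1. The study had already reported all 8 as higher in CCI from these data, so the count is no independent check of the injury.

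The loci lay in 2 groups of very different size. MSTRG.12080 and MSTRG.12081 stood near Wrn, the first of them starting 36.5 kb after the end of the Wrn row. After a gap of 304.5 kb came a block of 70 loci from 62961350 to 63716384, which ended 120.8 kb before the Nrg1 row. The block spanned 755 kb, of which the loci covered 259 kb or 34.4%, and the gaps between them had a median of 4365 bp. Its loci followed one another at gaps of 98 bp to 58.5 kb. No row with a gene name stood among them.

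Nearly all of these loci were without a strand. The table gave none to 70 of the 72 loci (97.2%), while 62.6% of all 6849 unnamed rows had none. MSTRG.12097 was on the plus strand, as the rows of Nrg1 and of Wrn (MSTRG.12082) were, and MSTRG.12151 on the minus strand. The length that the FPKM values imply was within 3% of the whole span for 71 of the 72 loci, as for a locus of a single exon, and it was 0.961 of the span for MSTRG.12097. Whether counting used the strand is not given in the sources used here, so reads from either strand of these loci cannot be told apart. Lengths ran from 216 to 17722 bp with a median of 1929.5 bp, against a median of 970 bp for the 6519 other unnamed rows tested.

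In the RefSeq annotation of the GRCr8 assembly, which is another build than that of the table and is used here only for the order of genes, 5 genes stand between Wrn and Nrg1: Rps15al5, LOC134482401, LOC134482553, Atpaf2-ps1 and LOC120097371. A further 2 genes for long non-coding RNA, LOC120097372 and LOC134482402, are listed within the span of Nrg1. Which of the 72 loci, if any, overlap these genes was not analysed here.

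The loci were low and close to one another in level. Mean FPKM ran from 0.641 to 2.13 with quartiles at 1.02, 1.10 and 1.22, while the other unnamed rows tested had quartiles at 1.12, 1.46 and 1.99. The median FPKM over the 72 loci was 1.77 in CCI 1, 1.19 in CCI 2 and 1.16 in CCI 3, against 0.736, 0.792 and 0.859 in sham 1, 2 and 3. The CCI medians were thus above the sham medians without overlap, and CCI 1 was well above the other CCI libraries.

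**Figure D1:**
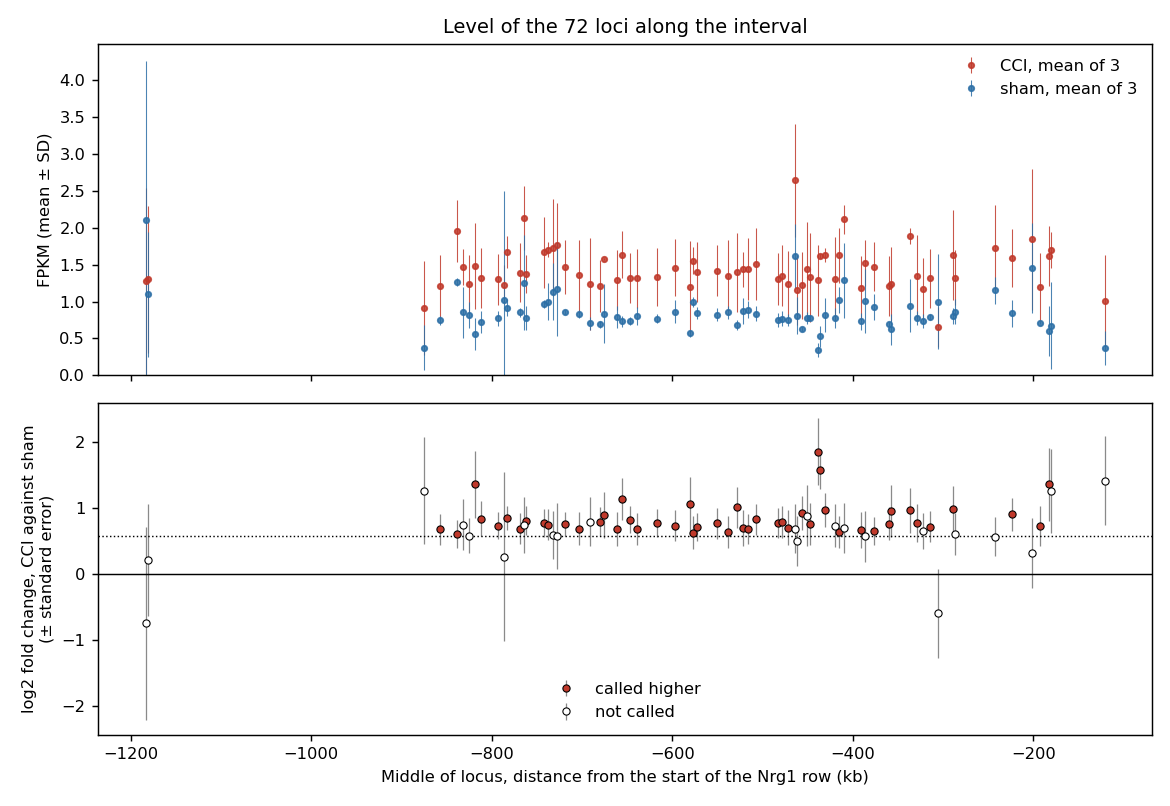
Level and fold change of the 72 loci against the distance of each locus's middle from the start of the Nrg1 row (kb). Upper panel: mean FPKM ± SD of 3 CCI (red) and 3 sham (blue) libraries. Lower panel: log2 fold change of CCI against sham ± standard error from edgeR, filled where called higher, with a dotted line at 0.58. The red points lie above the blue ones along the block except at MSTRG.12145, while the pair near Wrn, at the far left, has no such order.

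The comparison of CCI with sham asks what the injured nerve's ganglia transcribe differently from those of operated controls. Of the 72 loci, 49 were called higher in CCI and 0 lower, at the study's limits, which ask for a log2 fold change of 0.58 or more in size and for p under 0.05 before adjustment (edgeR quasi-likelihood test over 26663 rows). Over all rows tested, 2.57% were called higher and 1.26% lower. Among the other 6519 unnamed rows 177 were called higher, or 2.72%. The fold change was positive for 70 of the 72 loci and reached 0.58 in 63. Its median was 0.75 on the log2 scale, with a range of -0.74 to 1.86, beside a median of 0.02 over the other unnamed rows and 0.006 over all rows tested.

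No locus passed adjustment over all rows in edgeR. With Benjamini-Hochberg adjustment the lowest value among the loci was 0.135, where 49 loci had an unadjusted p under 0.05, and 25 of all rows (0.0938%) passed. DESeq2 called 52 of the loci higher at the same limits, with 2.83% of all rows, and put 14 of the 72 under an adjusted p of 0.05, with 2.80% of all rows, and limma on log2(FPKM + 0.1) or log2(FPKM + 1) put 0. The number called fell whenever a library was left out, and each such fit also has fewer libraries. It was 12 without CCI 1, where 2.11% of all rows were called higher. Leaving out sham 1, 2 or 3 gave 22, 27 and 36 (2.77%, 2.36% and 2.57% of all rows). Leaving out CCI 2 or CCI 3 gave 46 and 45 (2.56% and 2.88%). On the log2(FPKM + 1) scale limma called 7, with 1.54% of all rows. The median log2 fold change was 0.52 without CCI 1 and 0.72 without sham 1.

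The libraries were also compared by their order alone. Every CCI library was above every sham library, by CPM, at 54 of the 72 loci, against 8.63% of all rows tested and 418 of the other 6519 unnamed rows (6.41%). The reverse order, with every CCI library below, was seen at 0 loci and in 8.70% of all rows. CCI 1 was the highest of the 6 libraries at 57 loci (79.2%), CCI 2 at 4 and CCI 3 at 8, and each sham library at 1. In the other unnamed rows CCI 1 was the highest in 21.2%. Among the 49 loci called, CCI 1 was the highest at 43 (87.8%), and among the 637 other rows called higher it was so at 388 (60.9%).

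Summed over the block, the counts were 516, 334 and 309 CPM in CCI 1, 2 and 3 and 214, 233 and 244 CPM in sham 1, 2 and 3. The means were 386 ± 113 and 230 ± 15.3 CPM (SD, n = 3), a ratio of 1.68. The groups did not overlap, and the spread within CCI was far wider than within sham. The 2 loci near Wrn gave 0.394, 3.20 and 1.55 CPM in CCI and 3.46, 0.265 and 1.85 CPM in sham, where the groups overlapped.

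**Figure D2:**
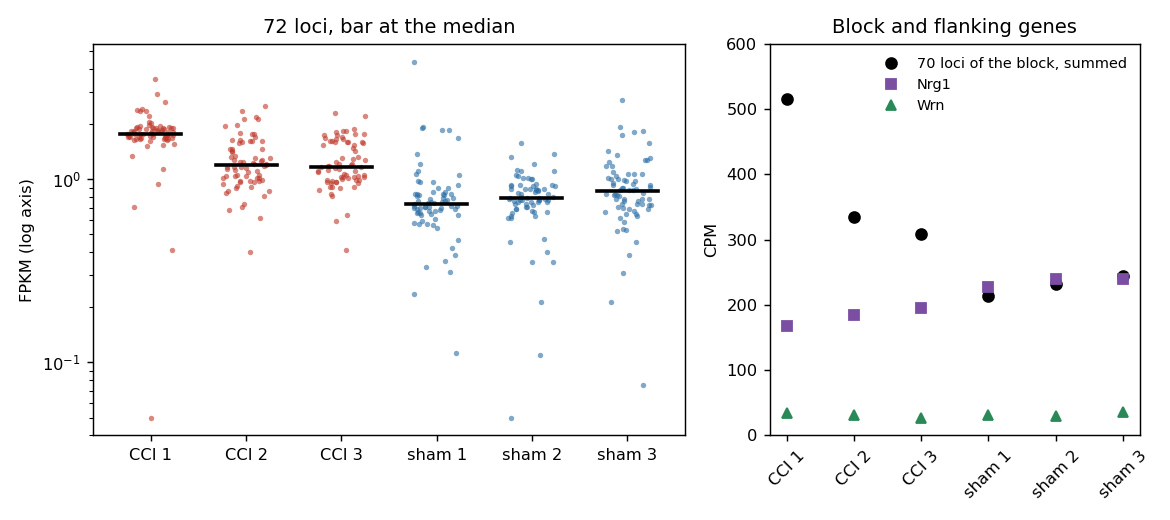
Left: FPKM (log axis) of each of the 72 loci in the 6 libraries, with a bar at the median and values under 0.05 drawn at 0.05. Right: CPM of the 70 block loci summed (circles), Nrg1 (squares) and Wrn (triangles). The block is highest in CCI 1, at 516 CPM, and lies at 214 to 244 CPM in the sham libraries, close to Nrg1 there.

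The difference between the groups was even along the block. Cut into bins of 100 kb from its first locus, the block had levels per kb of locus that were 1.64, 1.68, 1.69, 1.67, 1.69, 1.69 and 1.76 times as high in CCI as in sham in the first 7 bins, by mean CPM per kb. In each of these bins every CCI library was above every sham library. CCI 1 was at 1.86 to 2.16 CPM per kb, CCI 2 at 1.10 to 1.49, CCI 3 at 1.14 to 1.40 and the sham libraries at 0.755 to 1.07. The last bin held a single locus of 257 counts in all, with a ratio of 2.68. These bins share their libraries and are not replicates of the difference.

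**Figure D3:**
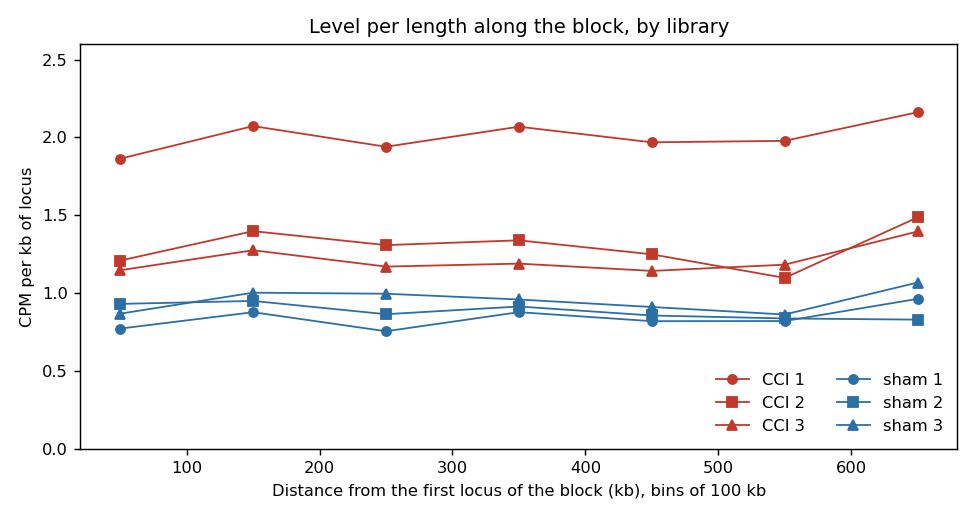
CPM per kb of locus in bins of 100 kb along the block, by the distance from its first locus (kb), with a line for each library and the last bin, of 1 locus, left out. CCI 1 runs near 2 CPM per kb throughout, CCI 2 and CCI 3 between 1.10 and 1.49, and the sham libraries between 0.755 and 1.07.

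The loci are now taken in order from Wrn to Nrg1, with FPKM for CCI 1, 2 and 3 and then sham 1, 2 and 3, and with the log2 fold change of CCI against sham and its standard error (SE). Positions are start and end on chromosome 16 in the table's build. Values are shown for the loci called, those of highest mean FPKM, those of largest fold change either way and the lowest in mean FPKM.

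The pair near Wrn varied from library to library. MSTRG.12080 (62653691 to 62654031) was at 0.0001, 2.52 and 1.31 FPKM in CCI and 4.37, 0.110 and 1.83 FPKM in sham (log2 fold change -0.74, SE 1.46). It was at 0.0001 FPKM, the table's entry for a count of 0, in CCI 1, which allows up to 3 counts. MSTRG.12081 (62655939 to 62656809), with a log2 fold change of 0.22 (SE 0.85), had 0.409, 2.37 and 1.11 FPKM in CCI and 1.90, 0.213 and 1.18 FPKM in sham. Both were low in CCI 1 and sham 2 and high in CCI 2, and neither separated the groups (adjusted p = 0.912 and 0.959, edgeR).

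The first 100 kb of the block held 10 loci, 6 of them called. MSTRG.12084 (62961350 to 62962595) was at 0.706, 0.399 and 1.62 FPKM in CCI and 0.358, 0.685 and 0.0750 FPKM in sham (log2 fold change 1.27, SE 0.82). MSTRG.12085 (62970556 to 62988277), with a log2 fold change of 0.68 (SE 0.24), had 1.69, 1.02 and 0.912 FPKM in CCI and 0.680, 0.779 and 0.775 FPKM in sham. MSTRG.12086 (62998369 to 62999617) was at 2.43, 1.77 and 1.66 FPKM in CCI and 1.21, 1.32 and 1.27 FPKM in sham (log2 fold change 0.61, SE 0.21). The first of these overlapped between groups and peaked in CCI 3, while the other two had every CCI library above every sham library with CCI 1 on top. MSTRG.12085 is the longest of all the loci. MSTRG.12089 (63018150 to 63018490), with a log2 fold change of 1.36 (SE 0.50), had 1.87, 0.810 and 1.75 FPKM in CCI and 0.544, 0.353 and 0.780 FPKM in sham. MSTRG.12090 (63022667 to 63028583) was at 1.76, 1.21 and 0.973 FPKM in CCI and 0.7, 0.887 and 0.587 FPKM in sham (log2 fold change 0.84, SE 0.26). MSTRG.12091 (63038638 to 63049345), with a log2 fold change of 0.73 (SE 0.21), had 1.69, 1.16 and 1.05 FPKM in CCI and 0.768, 0.879 and 0.673 FPKM in sham. In MSTRG.12089 CCI 2 stood only just above sham 3, and MSTRG.12090 and MSTRG.12091 kept a wider gap between the groups. MSTRG.12093 (63052439 to 63054814) was at 1.91, 1.64 and 1.48 FPKM in CCI and 0.823, 1.05 and 0.879 FPKM in sham (log2 fold change 0.85, SE 0.18). Its lowest CCI library, CCI 3, was clear of the highest sham library.

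In the second 100 kb 7 of 11 loci were called. MSTRG.12094 (63066061 to 63070155), with a log2 fold change of 0.69 (SE 0.24), had 1.76, 1.45 and 0.961 FPKM in CCI and 0.832, 0.799 and 0.926 FPKM in sham. MSTRG.12095 (63072149 to 63072636) was at 2.63, 1.96 and 1.81 FPKM in CCI and 0.640, 1.21 and 1.92 FPKM in sham (log2 fold change 0.75, SE 0.43). MSTRG.12096 (63073260 to 63077259), with a log2 fold change of 0.81 (SE 0.22), had 1.67, 1.28 and 1.18 FPKM in CCI and 0.589, 0.855 and 0.876 FPKM in sham. MSTRG.12095 was among the most abundant loci, but sham 3 reached above CCI 3 and it was not called, whereas the groups were apart in its neighbours on either side. MSTRG.12097 (63091873 to 63098797) was at 2.22, 1.46 and 1.31 FPKM in CCI and 0.898, 1.0 and 0.986 FPKM in sham (log2 fold change 0.77, SE 0.21). MSTRG.12098 (63098896 to 63100295), with a log2 fold change of 0.75 (SE 0.23), had 1.82, 1.63 and 1.65 FPKM in CCI and 0.738, 1.02 and 1.24 FPKM in sham. MSTRG.12099 (63103686 to 63105895) was at 2.36, 1.05 and 1.76 FPKM in CCI and 0.935, 0.887 and 1.58 FPKM in sham (log2 fold change 0.59, SE 0.36). MSTRG.12097, the locus on the plus strand and the only one shorter than its span, had CCI 1 on top and the sham libraries close together below all of CCI. MSTRG.12099 overlapped, since CCI 2 was below sham 3. MSTRG.12100 (63109140 to 63109751), with a log2 fold change of 0.58 (SE 0.50), had 2.40, 1.30 and 1.59 FPKM in CCI and 1.68, 1.37 and 0.452 FPKM in sham. MSTRG.12101 (63110743 to 63126482) was at 1.88, 1.32 and 1.19 FPKM in CCI and 0.834, 0.885 and 0.846 FPKM in sham (log2 fold change 0.76, SE 0.17). MSTRG.12102 (63131761 to 63136692), with a log2 fold change of 0.69 (SE 0.25), had 1.90, 1.17 and 1.0 FPKM in CCI and 0.851, 0.773 and 0.873 FPKM in sham. At MSTRG.12100 sham 1 was above CCI 2 and CCI 3, while in the long MSTRG.12101 next to it the sham libraries lay within a narrow range below all of CCI. MSTRG.12104 (63153391 to 63160578) was at 1.62, 1.05 and 0.965 FPKM in CCI and 0.634, 0.709 and 0.728 FPKM in sham (log2 fold change 0.79, SE 0.22). Here too CCI 1 led and no groups overlapped.

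All 9 loci of the third 100 kb were called. MSTRG.12105 (63161190 to 63162280), with a log2 fold change of 0.90 (SE 0.35), had 1.57, 1.59 and 1.59 FPKM in CCI and 0.579, 0.630 and 1.30 FPKM in sham. MSTRG.12106 (63171032 to 63180549) was at 1.75, 1.13 and 0.985 FPKM in CCI and 0.665, 0.752 and 0.958 FPKM in sham (log2 fold change 0.69, SE 0.25). MSTRG.12107 (63181442 to 63181857), with a log2 fold change of 1.14 (SE 0.32), had 1.86, 1.76 and 1.27 FPKM in CCI and 0.776, 0.765 and 0.649 FPKM in sham. The CCI libraries were nearly level with each other in MSTRG.12105, and in MSTRG.12106 CCI 3 was just above sham 3. MSTRG.12108 (63187988 to 63192707) was at 1.69, 1.25 and 1.03 FPKM in CCI and 0.691, 0.793 and 0.731 FPKM in sham (log2 fold change 0.83, SE 0.21). MSTRG.12109 (63195532 to 63201108), with a log2 fold change of 0.68 (SE 0.24), had 1.77, 1.02 and 1.15 FPKM in CCI and 0.693, 0.795 and 0.936 FPKM in sham. MSTRG.12110 (63214782 to 63225914) was at 1.77, 1.22 and 1.01 FPKM in CCI and 0.703, 0.769 and 0.829 FPKM in sham (log2 fold change 0.78, SE 0.21). These carried the common order, CCI 1 well above the other CCI libraries and all of them above sham. MSTRG.12111 (63236738 to 63242988), with a log2 fold change of 0.74 (SE 0.23), had 1.90, 1.24 and 1.24 FPKM in CCI and 0.706, 0.868 and 1.02 FPKM in sham. MSTRG.12112 (63256192 to 63257705) was at 1.83, 1.18 and 0.592 FPKM in CCI and 0.570, 0.615 and 0.525 FPKM in sham (log2 fold change 1.06, SE 0.41). MSTRG.12113 (63260117 to 63260664), with a log2 fold change of 0.63 (SE 0.25), had 1.35, 1.61 and 1.71 FPKM in CCI and 0.979, 0.925 and 1.06 FPKM in sham. MSTRG.12112 was called although CCI 3 fell below sham 2, and in MSTRG.12113 CCI 1 was the lowest CCI library.

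All 9 loci of the fourth 100 kb were called as well. MSTRG.12114 (63260944 to 63269117) was at 1.86, 1.26 and 1.09 FPKM in CCI and 0.893, 0.747 and 0.891 FPKM in sham (log2 fold change 0.72, SE 0.22). MSTRG.12115 (63285559 to 63287565), with a log2 fold change of 0.77 (SE 0.23), had 1.65, 1.58 and 1.03 FPKM in CCI and 0.822, 0.731 and 0.912 FPKM in sham. MSTRG.12116 (63292962 to 63305699) was at 1.90, 1.09 and 1.06 FPKM in CCI and 0.754, 0.915 and 0.897 FPKM in sham (log2 fold change 0.64, SE 0.24). CCI 1 was the highest library in each, and the lowest CCI library was CCI 3. MSTRG.12117 (63307255 to 63309815), with a log2 fold change of 1.01 (SE 0.31), had 1.89, 1.46 and 0.829 FPKM in CCI and 0.734, 0.613 and 0.704 FPKM in sham. MSTRG.12118 (63315046 to 63315885) was at 1.71, 1.30 and 1.29 FPKM in CCI and 0.849, 0.701 and 1.06 FPKM in sham (log2 fold change 0.70, SE 0.27). MSTRG.12119 (63317073 to 63324559), with a log2 fold change of 0.68 (SE 0.23), had 1.92, 1.27 and 1.13 FPKM in CCI and 0.761, 0.920 and 0.982 FPKM in sham. In MSTRG.12117 the step from CCI 1 down to CCI 3 was the steepest of these, and CCI 3 came close to sham 1. MSTRG.12120 (63325916 to 63334801) was at 2.05, 1.34 and 1.13 FPKM in CCI and 0.962, 0.767 and 0.783 FPKM in sham (log2 fold change 0.83, SE 0.24). MSTRG.12121 (63351146 to 63356397), with a log2 fold change of 0.78 (SE 0.22), had 1.71, 1.04 and 1.16 FPKM in CCI and 0.642, 0.792 and 0.823 FPKM in sham. MSTRG.12122 (63357204 to 63361157) was at 1.83, 1.12 and 1.11 FPKM in CCI and 0.698, 0.885 and 0.722 FPKM in sham (log2 fold change 0.80, SE 0.25). Throughout this stretch every CCI library was above every sham library.

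The fifth 100 kb was the most crowded, with 15 loci of which 9 were called. MSTRG.12123 (63361635 to 63370050), with a log2 fold change of 0.71 (SE 0.26), had 1.75, 1.05 and 0.910 FPKM in CCI and 0.814, 0.657 and 0.777 FPKM in sham. MSTRG.12124 (63373161 to 63373403) was at 3.52, 2.18 and 2.21 FPKM in CCI and 1.92, 1.11 and 1.80 FPKM in sham (log2 fold change 0.69, SE 0.38). MSTRG.12126 (63377233 to 63384436), with a log2 fold change of 0.93 (SE 0.26), had 1.74, 0.960 and 0.958 FPKM in CCI and 0.603, 0.662 and 0.631 FPKM in sham. MSTRG.12124 had the highest mean FPKM of all 72 loci at 243 bp, and it was not called (adjusted p = 0.599, edgeR) although its groups did not overlap. MSTRG.12128 (63388084 to 63390514) was at 2.02, 0.968 and 0.996 FPKM in CCI and 0.739, 0.766 and 0.813 FPKM in sham (log2 fold change 0.77, SE 0.32). MSTRG.12129 (63398860 to 63399212), with a log2 fold change of 1.86 (SE 0.50), had 1.54, 0.737 and 1.59 FPKM in CCI and 0.235, 0.403 and 0.385 FPKM in sham. MSTRG.12130 (63400716 to 63401464) was at 1.65, 1.61 and 1.59 FPKM in CCI and 0.423, 0.470 and 0.696 FPKM in sham (log2 fold change 1.58, SE 0.29). MSTRG.12129 and MSTRG.12130 lie side by side and had the largest fold changes of the loci, with sham levels of 0.696 FPKM or less. MSTRG.12130 also had the lowest adjusted p of all the loci, 0.135 by edgeR, and its CCI libraries were almost level. MSTRG.12131 (63405830 to 63406736), with a log2 fold change of 0.97 (SE 0.26), had 1.73, 1.62 and 1.53 FPKM in CCI and 1.07, 0.761 and 0.616 FPKM in sham. MSTRG.12133 (63420453 to 63422304) was at 1.89, 1.78 and 1.20 FPKM in CCI and 1.05, 0.832 and 1.18 FPKM in sham (log2 fold change 0.65, SE 0.24). MSTRG.12134 (63427050 to 63427318), with a log2 fold change of 0.70 (SE 0.38), had 1.91, 2.13 and 2.30 FPKM in CCI and 1.86, 1.12 and 0.876 FPKM in sham. At MSTRG.12133 CCI 3 and sham 3 were side by side and crossed by CPM, and MSTRG.12134 was highest in CCI 3. MSTRG.12135 (63443956 to 63449498) was at 1.67, 0.975 and 0.893 FPKM in CCI and 0.668, 0.865 and 0.663 FPKM in sham (log2 fold change 0.67, SE 0.28). MSTRG.12137 (63457110 to 63463143), with a log2 fold change of 0.65 (SE 0.22), had 1.83, 1.41 and 1.18 FPKM in CCI and 0.752, 0.927 and 1.09 FPKM in sham. In this pair CCI 3 stood just above the highest sham library.

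In the sixth 100 kb 6 of 9 loci were called. MSTRG.12138 (63475614 to 63478735) was at 1.66, 0.890 and 1.07 FPKM in CCI and 0.704, 0.670 and 0.723 FPKM in sham (log2 fold change 0.77, SE 0.26). MSTRG.12139 (63479148 to 63480836), with a log2 fold change of 0.96 (SE 0.39), had 1.81, 0.919 and 0.966 FPKM in CCI and 0.386, 0.722 and 0.763 FPKM in sham. MSTRG.12140 (63500438 to 63501030) was at 1.93, 1.97 and 1.76 FPKM in CCI and 0.562, 0.996 and 1.28 FPKM in sham (log2 fold change 0.97, SE 0.34). The first and second had CCI 1 far above CCI 2 and CCI 3, while the third, among the most abundant loci, was even over CCI and highest in CCI 2. MSTRG.12142 (63504136 to 63511997), with a log2 fold change of 0.78 (SE 0.29), had 1.98, 0.982 and 1.05 FPKM in CCI and 0.828, 0.663 and 0.827 FPKM in sham. MSTRG.12144 (63520938 to 63524644) was at 1.76, 0.975 and 1.21 FPKM in CCI and 0.834, 0.777 and 0.756 FPKM in sham (log2 fold change 0.72, SE 0.24). MSTRG.12145 (63531016 to 63531231), with a log2 fold change of -0.59 (SE 0.67), had 0.940, 0.613 and 0.413 FPKM in CCI and 1.10, 1.58 and 0.306 FPKM in sham. MSTRG.12145, the shortest locus, had the second lowest fold change, with sham 2 the highest library and groups that overlapped. MSTRG.12146 (63547831 to 63548681) was at 1.82, 2.13 and 0.955 FPKM in CCI and 0.759, 0.931 and 0.736 FPKM in sham (log2 fold change 0.99, SE 0.34). CCI 2 was the highest library there and CCI 3 was close to sham 2.

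The last stretch thinned out towards Nrg1, with 3 of 6 loci called in the seventh 100 kb and 1 more locus, not called, in the eighth. MSTRG.12148 (63594718 to 63595562), with a log2 fold change of 0.57 (SE 0.30), had 2.35, 1.21 and 1.62 FPKM in CCI and 1.36, 1.01 and 1.07 FPKM in sham. MSTRG.12149 (63612330 to 63615550) was at 1.93, 1.69 and 1.16 FPKM in CCI and 0.789, 0.692 and 1.04 FPKM in sham (log2 fold change 0.91, SE 0.25). MSTRG.12150 (63635162 to 63635462), with a log2 fold change of 0.33 (SE 0.53), had 2.90, 1.04 and 1.58 FPKM in CCI and 1.86, 0.751 and 1.74 FPKM in sham. MSTRG.12148 and MSTRG.12150 had overlapping groups and were highest in CCI 1. MSTRG.12151 (63643997 to 63645549) was at 1.72, 0.839 and 1.03 FPKM in CCI and 0.717, 0.730 and 0.687 FPKM in sham (log2 fold change 0.73, SE 0.30). MSTRG.12152 (63654221 to 63654613), with a log2 fold change of 1.37 (SE 0.56), had 1.82, 1.14 and 1.88 FPKM in CCI and 0.716, 0.869 and 0.214 FPKM in sham. MSTRG.12151, the locus on the minus strand, was highest in CCI 1 with no overlap between the groups, and in MSTRG.12152 CCI 3 was slightly above CCI 1. MSTRG.12154 (63715690 to 63716384) was at 1.73, 0.675 and 0.638 FPKM in CCI and 0.112, 0.456 and 0.538 FPKM in sham (log2 fold change 1.42, SE 0.68). This locus, nearest to Nrg1, had all of CCI above all of sham but a wide error (adjusted p = 0.537, edgeR).

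The remaining 11 loci were not called (p from 0.0506 to 0.841, edgeR). They were 243 to 7874 bp long, with mean FPKM of 0.950 to 1.27 and log2 fold changes of 0.27 to 1.26, so all of them were positive. In 4 of the 11 every CCI library was above every sham library. Over all 23 loci that were not called, 14 had a fold change past 0.58 and none had a p under 0.05, and their median length was 694 bp against 3954 bp for the loci called.

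The long loci lay close to each other in fold change. Of the 21 loci of at least 5 kb, which held 69.0% of the counts, 20 were called and 20 had every CCI library above every sham library. Their log2 fold changes lay between 0.58 and 0.93 with a median of 0.73 and SE of 0.17 to 0.29. Each of the 21 was highest in CCI 1. The exception to the calls was MSTRG.12088, named after its values were seen, at a log2 fold change of 0.58 (adjusted p = 0.508, edgeR). Mean CCI levels of these long loci were 1.18 to 1.66 FPKM and mean sham levels 0.632 to 0.962 FPKM, and these ranges of means did not meet. Single libraries did cross between loci, with CCI 3 at 0.893 FPKM in MSTRG.12135 and sham 3 at 1.09 FPKM in MSTRG.12137. The loci share their libraries and are not replicates. Among the 1476 other unnamed rows of at least 5 kb 29 were called higher (1.96%), and their log2 fold changes ran from -0.36 at percentile 10 to 0.34 at percentile 90.

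Shorter loci scattered more. Of all rows tested, at any length, 2.57% were called higher. Among 25 loci of 1 to 5 kb 19 were called and the log2 fold changes were 0.51 to 1.27. Among 26 loci under 1 kb, with 6.11% of the counts, 10 were called and the log2 fold changes ran from -0.74 to 1.86 with SE of 0.25 to 1.46. CCI 1 was the highest library at 13 of these 26. Both loci with a negative fold change were under 1 kb.

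**Figure D4:**
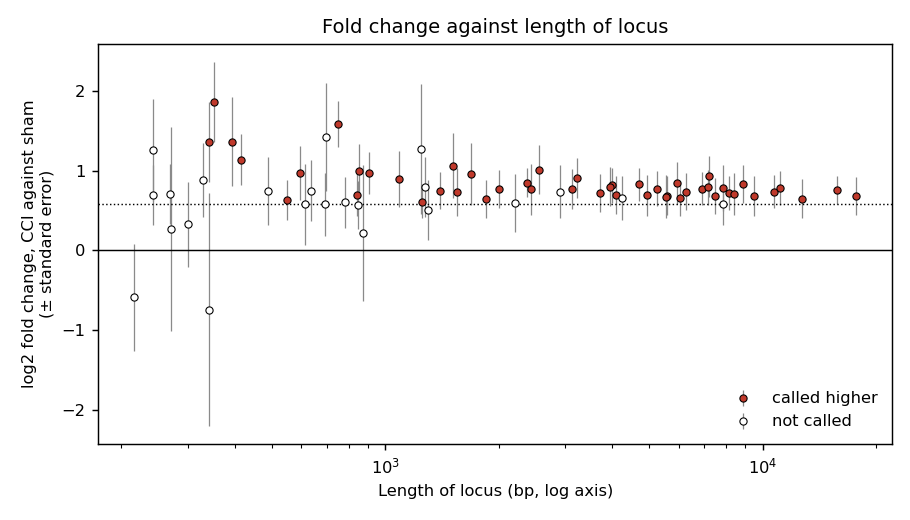
Log2 fold change of CCI against sham (± standard error, edgeR) for each of the 72 loci against its length (bp, log axis), filled where called higher, with a dotted line at 0.58. Loci of at least 5 kb lie between 0.58 and 0.93, and loci under 1 kb spread from -0.74 to 1.86.

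The genes at both ends were not higher in CCI. In CCI 1, 2 and 3 the row of Nrg1 (MSTRG.12155, 63837216 to 64064993, plus strand) held 13557, 14812 and 14841 counts, against 19987, 19029 and 19833 in sham, or 182 ± 14.1 and 236 ± 7.15 CPM (SD, n = 3). Every CCI library was below every sham library. Its log2 fold change was -0.37 (SE 0.07, adjusted p = 0.142, edgeR), which is short of the fold limit, so it was not called. Before adjustment its p was 0.0013 in edgeR and 2.67e-05 in DESeq2. Of all rows tested 2.8% passed adjustment in DESeq2, and the adjusted p of Nrg1 there is not given here. That Nrg1 did not pass adjustment thus holds for edgeR and was not looked at in DESeq2. The summed block came to 309%, 182% and 158% of the Nrg1 counts in CCI 1, 2 and 3, and to 93.9%, 96.9% and 102% in sham 1, 2 and 3. The forms of the Nrg1 transcript, and whether the row takes in all of them, were not analysed here.

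In CCI the row of Wrn (MSTRG.12082, 62483761 to 62617177) held 2733, 2466 and 1967 counts, against 2740, 2380 and 2921 in sham. The groups overlapped, and the log2 fold change was -0.10 (SE 0.12, adjusted p = 0.838, edgeR). A second row of that name without a strand (MSTRG.12083, 62617323 to 62620290) held 208, 525 and 504 counts in the CCI libraries against 509, 462 and 587 in sham, with a log2 fold change of -0.25 (adjusted p = 0.871, edgeR). Here CCI 1 was the lowest library, the opposite of its place in the block.

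Within 1 Mb of these flanking genes 26 named rows were tested, the row of Nrg1 and both rows of Wrn among them. Their median log2 fold change was -0.05. Of these 26 rows 1 was called higher and 1 lower, beside 2.57% and 1.26% of all rows. Both are named after their values were seen: Dusp26, for a protein phosphatase, had 11557, 7293 and 6374 counts in CCI and 5247, 4327 and 5617 in sham (log2 fold change 0.80, adjusted p = 0.265, edgeR), and Smim18 had a log2 fold change of -0.60 (adjusted p = 0.136, edgeR). Dusp26 had CCI 1 highest and no overlap between groups, as most of the block did. The window held 2 more unnamed rows, named here for the same reason: MSTRG.12141 with 140, 74 and 35 counts in CCI and 47, 0 and 37 in sham (adjusted p = 0.695, edgeR), and MSTRG.12156 with 53, 26 and 91 counts in CCI and 162, 71 and 135 in sham (adjusted p = 0.573, edgeR). Neither was called.

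The neuregulin and ErbB list held 18 genes, among them proteases, adaptors and transcription factors such as Adam10, Shc1 and Sox10. Of the 18, 16 were tested and 0 were called in either direction, beside 2.57% of all rows called higher and 1.26% lower. The median log2 fold change of the 16 was 0.07. Erbb2, the co-receptor without a ligand of its own, had a log2 fold change of 0.08 and Erbb3, the neuregulin receptor of Schwann cells, one of 0.09 (adjusted p = 0.961 and 0.640, edgeR). Erbb4, another neuregulin receptor, was at -0.53 (adjusted p = 0.349, edgeR), short of the fold limit. Every CCI library was below every sham library for Erbb4, as for Nrg1, an order seen in 8.70% of all rows. The opposite order, seen in 8.63% of all rows, was that of Egr2 and Pou3f1, named after their values were seen. Their log2 fold changes were 0.46 and 0.55. The list's summed level was 1597, 1590 and 1702 CPM in CCI and 1584, 1620 and 1668 CPM in sham, where the groups overlapped.

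Some cell type markers had the order of the block and most did not. Of 11 macrophage markers 6 were called higher (Cd68, Csf1r, Cx3cr1, C1qa, C1qb and C1qc) and 0 lower, beside 2.57% and 1.26% of all rows. The median log2 fold change of the 11 was 0.75, and 8 of the 11 were highest in CCI 1. Aif1, Itgam, Adgre1, Mrc1 and Cd163 were not called, with groups that overlapped and log2 fold changes of 0.50, 0.33, 0.02, 0.36 and -0.003. Summed over the 11, levels were 193, 166 and 129 CPM in CCI and 94.8, 95.3 and 122 CPM in sham. The sums did not overlap, though CCI 3 was only just above sham 3, and CCI 1 was on top, as in the block. The genes of the injury response summed to 737, 501 and 425 CPM in CCI and 180, 185 and 173 CPM in sham, again with CCI 1 on top and the CCI libraries in the same order as in the block. The part of either in the block's levels was not tested.

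At the unadjusted limits no marker was called for 14 neuron, 8 satellite glia, 9 Schwann cell, 5 endothelium and 6 fibroblast markers tested, in either direction. Over all rows tested 2.57% were called higher and 1.26% lower, shares at which lists this short would hold few calls or none. Neuron markers summed to 16161, 17206 and 15425 CPM in CCI and 19115, 19322 and 18697 CPM in sham, lower in every CCI library. The falls of Nefl, Nefh and Nefm, for the neurofilaments, weighed most on this sum. Their means were 3411, 2393 and 1946 CPM in CCI against 5078, 3492 and 2372 CPM in sham. They had log2 fold changes of -0.57, -0.54 and -0.29, and the groups overlapped for Nefm. Tubb3, for a neuronal tubulin, and Prph, for peripherin, had 0.31 and 0.25 with every CCI library above every sham library. These 5 are named after their values were seen, and the median log2 fold change of the 14 was -0.18. Nefl was under the adjusted limit (adjusted p = 0.0457, edgeR), though short of the fold limit. Satellite glia were at 2018 to 2157 CPM in CCI and 1977 to 2147 in sham, Schwann cells at 7591 to 9909 and 8808 to 9911, endothelium at 114 to 147 and 127 to 158, with Cldn5 at 0 counts in every library, and fibroblasts at 1699 to 2864 and 2536 to 2703. Of 7 skeletal muscle markers tested 5 were called lower, beside 1.26% of all rows. The 7 summed to 22.7, 13.3 and 8.59 CPM in CCI and 383, 11.6 and 48.1 CPM in sham. Of the 5 called, only Tnni2 had groups that did not overlap, and all 5 were highest in sham 1. Sham 1, the library rich in muscle genes, had the lowest block sum of the 6 at 214 CPM, and the part of the muscle RNA in that was not tested.

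Other stretches of unnamed rows give a scale for the block. Runs of unnamed rows tested with no named row between them numbered 1050 with at least 2 rows and 16 with at least 20. The run between Wrn and Nrg1, at 72 rows, was the longest of them. The next was a run of 43 rows on chromosome 13 with 0 rows called higher and 5 lower (median log2 fold change -0.44). After it came one of 42 on chromosome 7 with 0 called (-0.04) and one of 41 on chromosome 15 with 0 higher and 1 lower (-0.12). These counts stand beside 2.57% of all rows called higher and 1.26% lower. Over the 16 long runs the medians ran from -0.44 to 0.75, the latter being that of the 72 loci.

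**Figure D5:**
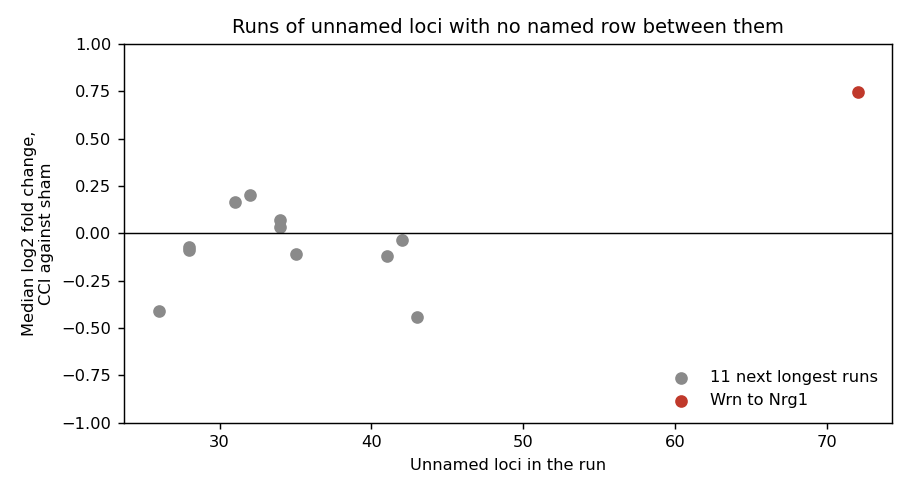
Median log2 fold change of CCI against sham (edgeR) against the number of unnamed loci in a run, for the 12 longest runs with no named row between their loci. The run from Wrn to Nrg1 (red) stands at 72 loci and 0.75, and the other 11 (grey) lie between -0.44 and 0.20.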

How the data were processed

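Total RNA of lumbar DRG was depleted of ribosomal RNA and sequenced as paired ends. The submitters' processing notes name HISAT2 2.0 and StringTie 1.3.0, and the study's methods name the rat reference genome only as V101, with no assembly. The deposited table gives, for each assembled row, raw counts and FPKM per library, both made by the authors. FPKM used a total 1.094 to 1.099 times the sum of the count column.

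Rows with a mean of at least 0.5 FPKM (26663) entered edgeR 4.0.16 (R 4.3.3; TMM factors, glmQLFit and glmQLFTest, CCI against sham, all 6 libraries, no covariate). A call needed a log2 fold change of 0.58 or more in size with p under 0.05 before adjustment, and adjustment (Benjamini-Hochberg) ran over all rows. SE is the fold change divided by the square root of F. Alternatives were RLE factors, DESeq2 1.42.0, limma 3.58.1 on log2(FPKM + 0.1) and log2(FPKM + 1), other FPKM limits, a replicate block and leaving out each library. The edgeR script was tested on simulated data. The p-values measure the spread between 3 samples a group, and a count of 3 equals 0.0342 to 0.0394 CPM.

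The members, gene lists and tests were chosen with earlier results of these data known. Values per library are given for loci called, the 10 of highest mean FPKM, the 3 largest fold changes each way and the 2 of lowest mean FPKM, nearest to the limit. The lists were neuregulin and ErbB genes with proteases, adaptors and transcription factors, markers of cell types, and injury response genes. The cell types were neurons, satellite glia, Schwann cells, macrophages, endothelium, fibroblasts and skeletal muscle.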

Additional observations from a re-analysis of the deposited data

How the results depend on the processing

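The count of loci called higher, 49, was 48 with RLE factors (2.56% of all rows), 52 with DESeq2 (2.83%), 35 with limma on log2(FPKM + 0.1) (2.79%), 39 of 56 at a mean FPKM of at least 1 (2.33%) and 49 without that limit (2.54%). It was 7 with limma on log2(FPKM + 1), where the median log2 fold change was 0.38 in place of 0.75 because the added 1 is as large as the levels, and 1.54% of all rows were called. With 1 library left out it ran from 12 without CCI 1 (2.11%) to 46 without CCI 2 (2.56%). The 12 without CCI 1 were among the 49. No locus was called lower under any of these settings. Loci at an adjusted p under 0.05 numbered 0 in edgeR and limma under each setting and 14 in DESeq2. The median stayed between 0.52 and 0.86 over the left-out libraries. A negative median was not seen under any setting.

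No pairing by replicate number was seen: the correlation of deviations was -0.0112, -0.0261 and -0.0745 for equal numbers and -0.0222 to 0.0487 for others. Deviations from the mean of so few libraries are tied to each other, so this check cannot exclude a pairing. With a replicate block 31 loci were called, all of them among the 49, and 2.31% of all rows.

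With 1 library left out, the log2 fold change of MSTRG.12080 ran from -1.72 to 0.34 (0.34 without sham 1), that of MSTRG.12081 from -0.55 (without CCI 2) to 0.86, with -0.26 without sham 2, and that of MSTRG.12150 from -0.16 (without CCI 1) to 0.61. Over the loci with values per library, 570 comparisons with an alternative kept direction and side of the limit, 199 lost the call, 7 gained it and 4 turned direction. Nrg1 and Wrn kept their direction and were not called under any of these settings. At 0.691 to 2.13 FPKM, the counts of loci under 1 kb limit their precision.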
